A study of Gallus gallus with 2 samples.

Results

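Cassette exons are internal exons that some transcripts of a gene carry and others skip. This account follows those of 46 to 200 nt whose length is a multiple of 3, so that including or skipping one leaves the downstream reading frame in place when the exon lies in coding sequence. Members were the cassette rows of the authors' splicing table that gave exactly 2 numbers per library (exclusion and inclusion reads), lay off chromosome Z and had 20 or more reads in each library. There were 911 such exons in 764 genes, of 1262 exons of this kind listed in 1055 genes, 2175 cassette exons tested and 6089 splicing events of all types tested. A further 70 exons of this length and frame class were on chromosome Z and were not members. Neither the reads of the inclusion form nor their change was used in this rule, only a minimum read total. The class itself was chosen with earlier results of these data known.

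The samples were 1 library from SRSF10-deficient (KO, SRSF10-/-) chicken DT40 cells and 1 library from wild-type (WT) DT40 cells. DT40 is a transformed B-lymphoblast line of the chicken bursa, the organ in which avian B cells mature. Poly(A) RNA was sequenced as read pairs. Whether the KO line came from 1 clone is not given in the sources used here, and a difference between the lines and an effect of the lost gene cannot be told apart with 1 library each.

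SRSF10 is a member of the SR protein family, RNA-binding proteins with stretches rich in arginine and serine that guide the spliceosome to exons. Its binding is known to favour inclusion of some exons and skipping of others. A skipped exon that keeps the frame removes a block of residues from the protein, whereas one that shifts the frame usually brings in an early stop codon. The table lists positions and reads but not strand, reading frame or coding sequence, so whether a given exon is translated was not determined here. Positions below are those of the galGal4 build as the authors listed them.

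The table held 10313 distinct events, with 2022343 listed reads in the KO library and 2047625 in the WT library. The members took 225072 of these reads in KO cells and 222823 in WT cells. SRSF10 itself had 0 listed events, so the table holds no check of the deleted gene. Events were listed for 11 of 15 B-lymphocyte marker genes, with 8213 reads in KO cells and 7578 in WT cells, among them IKZF1, PTPRC and BLNK. PAX5, BTK and SYK were among the 4 with no listed event, which says nothing of their expression. No event was listed for 5 fibroblast, 6 erythroid and 4 macrophage markers. Among 9 T-lymphocyte markers, CD3D had 759 event reads in KO cells and 69 in WT cells, and CD8A had 108 in KO cells and 80 in WT cells. The part of this difference in the results below was not tested.

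Inclusion was the percentage of an exon's reads that came from the form with the exon. A difference is KO minus WT inclusion, in percentage points. An exon was called changed where the two-sided Fisher's exact test on the reads, with Benjamini-Hochberg adjustment over all 6089 events, gave an adjusted p under 0.05 and the difference was at least 10 points. This test compares 2 libraries and has no replicate check. The 95% intervals given are Clopper-Pearson intervals for a percentage and Newcombe intervals for a difference. They cover counting error only, and reads without molecular identifiers are not independent molecules.

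Many frame-preserving exons were near full inclusion in both libraries. Median inclusion was 89.2% in KO cells (interquartile range 52.8 to 98.8) and 87.4% in WT cells (52.6 to 98.0). The difference was under 5 points for 544 of the 911 exons (59.7%), and its whole interval lay within 10 points of 0 for 365. Exons near the ceiling have little room to differ: the difference was under 5 points for 363 of the 430 exons with a mean inclusion over 90%, but for 142 of the 424 between 10% and 90%, where its median size was 7.77 points. A subset moved: 62 exons in 61 genes were called, 6.81% of the members (5.26 to 8.64). Of all tested events 4.7% were called, and of all tested cassette exons 6.07%, so the members' share was near that of cassette exons as a whole. The 62 were 35 exons higher in KO cells (3.84% of the members, against 3.17% of all tested cassette exons) and 27 lower (2.96%, against 2.9%). No exon went as far as 10% or less in one library and 90% or more in the other.

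**Figure D1:**
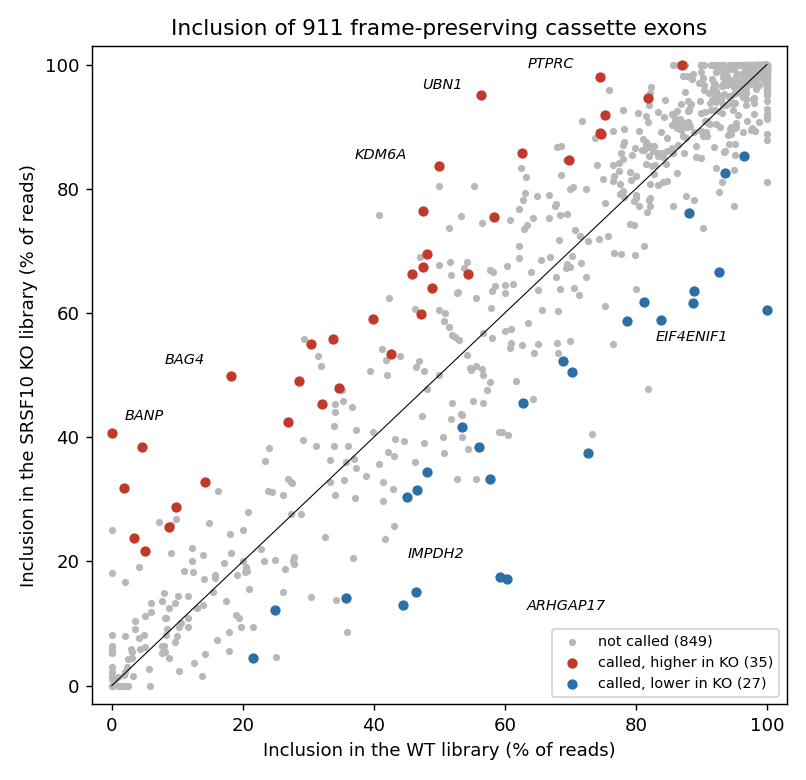
Inclusion of each of the 911 frame-preserving exons (% of reads) in KO cells, on the vertical axis, and in WT cells, on the horizontal axis. Most points lie near the diagonal, with 35 called exons above it and 27 called exons below it.

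The 27 exons called lower had a median inclusion of 41.6% in KO cells and 62.7% in WT cells, and 12 of them fell by 20 points or more. The 35 exons called higher had a median of 59.8% in KO cells and 45.8% in WT cells, and 15 of them rose by 20 points or more. The exons called lower had a median length of 81 nt (27 codons), and those called higher 111 nt (37 codons). Across all 911 members the difference was above 0 for 527 exons, below 0 for 363 and 0 for 21, with a median of 0.64 points. The 2175 tested cassette exons leaned the same way, with 1226 above 0, 889 below and 60 at 0, and a median of 0.44 points.

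Read counts carry no measure of how far 2 cultures of one kind differ. The chi-square statistic of the cassette exons was 3.97 times as large at the median as sampling of reads alone would give (1057 exons). Over events of all types together this factor was 1.31 (3284 events). It comes from the KO and WT libraries themselves, so spread between cultures and a broad effect of the lost gene cannot be told apart in it. Dividing the statistic of cassette exons by 3.97, called the correction below, left 8 of the 62 calls (0.878% of the members, against 0.552% of all tested cassette exons). Of these 4 were lower in KO cells, among them ARHGAP17, IMPDH2 and SLMAP, and 4 were higher in KO cells, among them PTPRC, INCENP and COX7A2L. Estimated separately, the factor was 2.716 for cassette exons below the median depth and 5.015 for those at or above it. With these factors, a setting added after the data were seen, 4 calls were left, among them PTPRC, IMPDH2 and ARHGAP17.

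PTPRC encodes CD45, the receptor tyrosine phosphatase of white blood cells, whose alternative exons change the extracellular part of the protein. Its 138 nt exon (chromosome 8, 2045308 to 2045445, 46 codons) was included in 1383 of 1411 reads in KO cells, 98.0% (97.1 to 98.7), against 712 of 956 reads in WT cells, 74.5% (71.6 to 77.2). Inclusion was thus near complete in KO cells, where 28 reads skipped the exon, against 244 in WT cells. The exon rose by 23.5 points (20.7 to 26.5), with a Fisher's exact adjusted p of 1.46e-69 and 1.86e-15 with the correction. IKZF1, the lymphoid zinc finger factor Ikaros, moved the other way at a 135 nt exon (chromosome 2, 80677758 to 80677892). It was included in 158 of 460 reads in KO cells (34.3%, 30.01 to 38.9), against 272 of 565 in WT cells (48.1%, 44.0 to 52.4), and fell by 13.8 points (Fisher's exact adjusted p = 0.00037, and 0.717 with the correction).

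The 9 gene lists used from here on were chosen with earlier results of these data known, so their shares are not independent of those results. Of 11 members in 10 lymphocyte signalling genes, 4 were called (36.4%, against 6.81% of all members), 3 higher and 1 lower. Beside PTPRC and IKZF1 these were CD47, the cell-surface signal that restrains engulfment by macrophages, and NFATC3, a calcineurin-dependent transcription factor. The 48 nt exon of CD47 was at 91.9% of 123 reads in KO cells, against 75.3% of 89 reads in WT cells (16.6 points higher, Fisher's exact adjusted p = 0.03). The 102 nt exon of NFATC3 was at 59.8% in KO cells, against 47.2% in WT cells (12.6 points higher, Fisher's exact adjusted p = 0.0373). Of the 4 calls, only that of PTPRC remained with the correction, and only PTPRC had an authors' deposited adjusted p under 0.05. The list's median difference was -0.96 points, against 0.64 for all members. An exon of BLNK, the B-cell linker adaptor, was at 48.9% in KO cells and 57.7% in WT cells, a difference of -8.77 points (-15.6 to -1.79) that did not pass (Fisher's exact adjusted p = 0.168). INPP5D, the inositol phosphatase SHIP1, was at 91.0% in KO cells and 86.9% in WT cells and was not called.

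In the cytoskeleton and adhesion list, 6 of 40 members (24 genes) were called (15%, against 6.81% of all members), and all 6 were lower in KO cells (2.96% of all members were called lower). The list was chosen with earlier results of these data known, so its share and direction are not independent of them. ARHGAP17, a GTPase-activating protein for CDC42 and RAC1, had the widest difference of the 911 exons. Its 48 nt exon (chromosome 14, 6567229 to 6567276, 16 codons) was included in 20 of 117 reads in KO cells, 17.1% (10.8 to 25.2), against 166 of 275 in WT cells, 60.4% (54.3 to 66.2). Exclusion reads outnumbered inclusion reads in KO cells (97 against 20), and inclusion reads outnumbered exclusion reads in WT cells (166 against 109). Whether inclusion counts sum both junctions of an exon is not stated, so the main form in WT cells was not determined. The exon fell by 43.3 points (Fisher's exact adjusted p = 1.43e-13, and 0.0103 with the correction). With inclusion reads scaled down to allow for both junctions, the difference was -33.9 points (Fisher's exact adjusted p = 2.33e-08). SPTAN1, the alpha chain of non-erythroid spectrin under the plasma membrane, had a 60 nt exon (chromosome 17, 5162818 to 5162877) at 13.04% of 92 reads in KO cells (6.93 to 21.7), against 44.4% of 99 in WT cells (34.5 to 54.8). It fell by 31.4 points (Fisher's exact adjusted p = 7.77e-05, and 0.559 with the correction).

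The other 4 calls of this list were narrower and were all lost with the correction. The microtubule-associated protein MAP4 had a 129 nt exon at 45.5% of 167 reads in KO cells, against 62.7% of 271 in WT cells. GIT2, a scaffold with GTPase-activating activity for ARF proteins, had a 90 nt exon at 30.4% of 250 reads in KO cells, against 45.03% of 302 in WT cells. ABI1 and ABI2, related subunits of the WAVE complex that drives actin branching, were named after their values were seen. A 177 nt exon of ABI1 was at 82.5% in KO cells, against 93.7% in WT cells, and an 87 nt exon of ABI2 at 12.1% in KO cells, against 24.9% in WT cells. Of the 40 members, 25 had a difference below 0 and 14 above 0, and their median was -2.07 points. Genes outside the list that also act on the cytoskeleton moved both ways. ZYX, zyxin of focal adhesions, was at 55.9% of 102 reads at a 93 nt exon in KO cells, against 33.8% of 136 in WT cells (22.1 points higher, Fisher's exact adjusted p = 0.0191). ELMO1, a partner of DOCK-family activators of RAC1, was at 69.5% at a 138 nt exon in KO cells, against 48.2% in WT cells (21.3 points higher, Fisher's exact adjusted p = 0.02). Neither the ZYX nor the ELMO1 call remained with the correction. MAP7D3, a microtubule-associated protein named after its values were seen, was at 38.3% in KO cells, against 56.1% in WT cells. The most deeply read uncalled members of the list were NF2, close to full inclusion in both libraries, and MYH9, non-muscle myosin, at 1.59% in KO cells and 3.27% in WT cells.

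The list of chromatin and transcription genes held the most members, with 61 in 44 genes. Of these 14 were called (23.0%, against 6.81% of all members), 11 higher in KO cells and 3 lower, and 0 of the 14 remained with the correction. As this list too was chosen with earlier results of these data known, its share and direction are not independent of them. The list's median difference was 0.85 points, against 0.64 for all members, and its median size without regard to direction was 5.71 points, against 3.40. BANP, a nuclear protein that binds DNA, had a 72 nt exon (chromosome 11, 17497677 to 17497748) in 11 of 27 reads in KO cells, 40.7% (22.4 to 61.2). In WT cells 0 of 27 reads included it, which allows up to 11.1% when the limit is set at 3 counts (the Clopper-Pearson upper bound is 12.8%), and the difference of 40.7 points was the widest increase (Fisher's exact adjusted p = 0.007). UBN1, a subunit of the HIRA histone chaperone, had a 144 nt exon (chromosome 14, 13240523 to 13240666) in 78 of 82 reads in KO cells, 95.1% (88.0 to 98.7), against 22 of 39 in WT cells, 56.4% (39.6 to 72.2). KDM6A, a demethylase of histone H3 lysine 27, had a 135 nt exon (chromosome 1, 110202915 to 110203049) in 103 of 123 reads in KO cells, 83.7% (76.01 to 89.8), against 37 of 74 in WT cells, 50% (38.1 to 61.9). The read totals behind these 3 exons were low, and with the correction the adjusted p (scaled chi-square, Benjamini-Hochberg) was 1 for BANP, 0.371 for UBN1 and 0.436 for KDM6A.

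L3MBTL2, a reader protein of a variant Polycomb complex, rose at a 66 nt exon to 55.0% of 218 reads in KO cells (48.2 to 61.8), against 30.4% of 263 in WT cells (24.9 to 36.4) (Fisher's exact adjusted p = 4.42e-06, and 0.31 with the correction). Further calls of the list were named after their values were seen. PHF20, a subunit of the NSL acetyltransferase complex, was at 66.3% in KO cells, against 45.8% in WT cells, at a 129 nt exon. The histone H3 lysine 9 methyltransferase gene EHMT1 was at 32.8% in KO cells, against 14.2% in WT cells. BPTF, the largest subunit of the NURF remodeller, was at 42.4% in KO cells, against 26.9% in WT cells. Among sequence-specific factors, MEF2A was at 67.4% of 436 reads in KO cells, against 47.5% of 400 in WT cells. FOXM1, a regulator of mitotic genes, was at 21.7% in KO cells, against 5.10% in WT cells. NFYA and NFYC, subunits of the CCAAT-binding factor NF-Y, both rose. NFYC was at 88.8% of 668 reads in KO cells (86.1 to 91.1), against 74.7% of 739 in WT cells (71.4 to 77.8), with a Fisher's exact adjusted p of 8.73e-10 and 0.0577 with the correction. NFYA was at 66.3% of 735 reads in KO cells (62.7 to 69.7), against 54.4% of 579 in WT cells (50.2 to 58.5).

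The 3 exons of the list that fell belonged to BBX and ARID1B. ARID1B, a subunit of the BAF remodelling complex, had a 159 nt exon (chromosome 3, 50721969 to 50722127) in 63 of 107 reads in KO cells, 58.9% (48.95 to 68.3), against 109 of 130 in WT cells, 83.8% (76.4 to 89.7). BBX, an HMG-box protein, was the single gene with more than 1 called member. Its 81 nt exon (chromosome 1, 86694602 to 86694682) was at 61.5% of 91 reads in KO cells, against 88.7% of 62 in WT cells. Its 90 nt exon (86715972 to 86716061) was at 14.1% of 99 reads in KO cells, against 35.8% of 81 in WT cells. These exons lie 21289 nt apart, and the table listed a further called event between them. Of a pair of mutually exclusive exons, the 81 nt exon was at 51.2% of 43 reads in KO cells and at 0 of 21 in WT cells. The remaining BBX member, of 171 nt, was at 85.1% in KO cells and 84.2% in WT cells. The deepest uncalled members of the chromatin list were TCF12, at 70.8% in KO cells and 62.1% in WT cells, and ZNF207, at 17.8% in KO cells and 19.2% in WT cells. Other transcription factors outside the list were ARNT, the shared partner of several bHLH-PAS factors, and HSF2, a heat shock factor. ARNT was at 76.4% of 127 reads at a 66 nt exon in KO cells, against 47.5% of 61 in WT cells, a call lost with the correction. HSF2, named after its values were seen, was at 76.1% in KO cells, against 88.1% in WT cells. LIN54, a DNA-binding subunit of the DREAM complex named in the same way, was at 28.7% in KO cells, against 9.78% in WT cells.

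**Figure D2:**
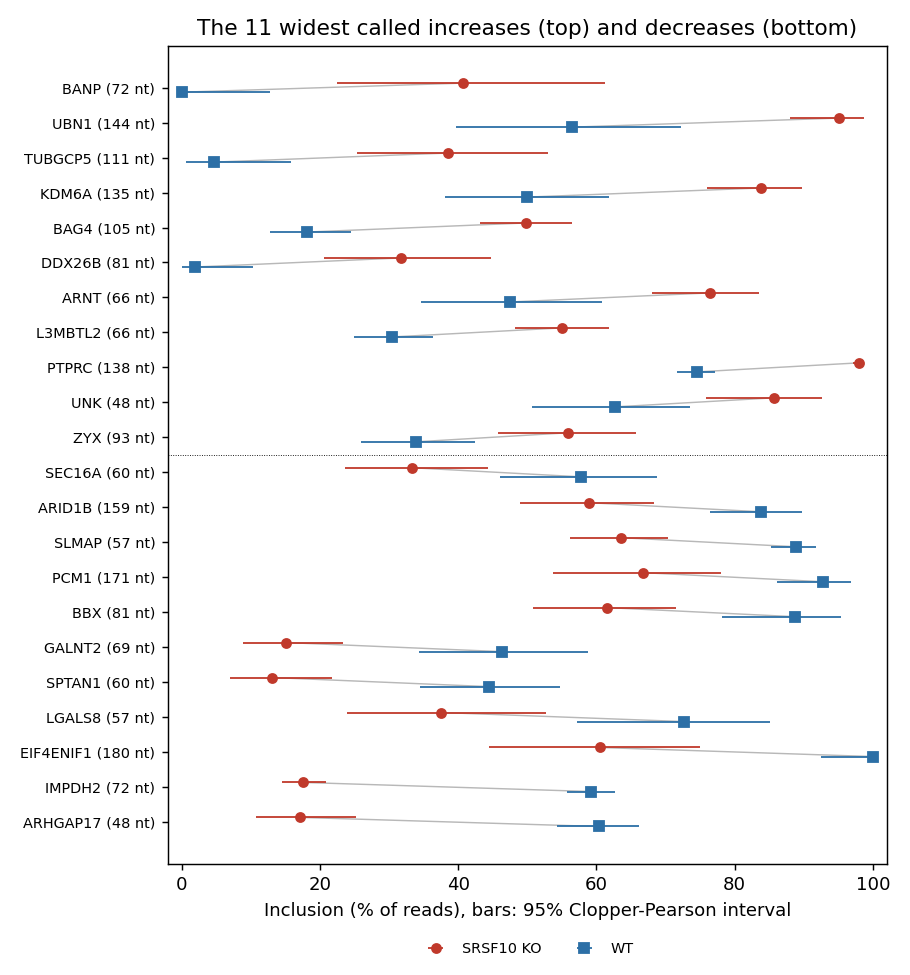
Inclusion (% of reads, with 95% Clopper-Pearson intervals) of the 11 widest called increases and the 11 widest called decreases, 1 per gene, with KO drawn above WT in each row. The exons at the ends are BANP, at 40.7% in KO cells against 0 in WT cells, and ARHGAP17, at 17.1% in KO cells against 60.4% in WT cells.

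Of 34 members in 28 RNA-binding and mRNA-processing genes, 5 were called (14.7%, against 6.81% of all members), 2 higher and 3 lower in KO cells. EIF4ENIF1, which carries the cap-binding factor eIF4E into the nucleus, had a 180 nt exon (chromosome 15, 8990976 to 8991155) in 26 of 43 reads in KO cells, 60.5% (44.4 to 75.02), against 47 of 47 reads in WT cells, 100% (92.5 to 100). Skipping of this exon was therefore seen in KO reads alone (Fisher's exact adjusted p = 2.64e-05, and 0.552 with the correction). R3HDM1 had a 51 nt exon at 50.6% of 271 reads in KO cells, against 70.2% of 722 in WT cells. EWSR1, an RNA-binding protein of the FET family, had a 78 nt exon (chromosome 15, 11167082 to 11167159) in 60 of 235 reads in KO cells, 25.5% (20.1 to 31.6), against 32 of 368 in WT cells, 8.70% (6.02 to 12.1). Neither the R3HDM1 nor the EWSR1 call remained with the correction. CPSF6, a subunit of the cleavage factor that sets 3′ ends and named after its values were seen, was at 48.0% of 523 reads in KO cells, against 34.7% of 421 in WT cells.

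RNA-related genes outside that list were called as well. UNK, an RNA-binding zinc finger protein, had a 48 nt exon at 85.7% of 77 reads in KO cells, against 62.7% of 75 in WT cells. TNRC6C, a scaffold of microRNA silencing named after its values were seen, was at 89.0% in KO cells, against 74.5% in WT cells. TCOF1, a nucleolar protein of ribosome production named in the same way, was at 41.6% in KO cells, against 53.5% in WT cells. DDX26B had an 81 nt exon in 20 of 63 reads in KO cells (31.7%), against 1 of 52 in WT cells (1.92%). The UNK and DDX26B calls did not remain with the correction. The deepest read member of all was EIF4G2, a translation initiation factor of the eIF4G family. Its 114 nt exon (chromosome 5, 8200381 to 8200494) was at 58.6% of 6829 reads in KO cells (57.5 to 59.8), against 50.7% of 6498 in WT cells (49.5 to 51.9). The difference of 7.94 points (6.25 to 9.62) stayed under the 10-point minimum, although the Fisher's exact adjusted p was 8.31e-18, and 0.000705 with the correction. The correction uses a single factor, which is smaller than the 5.015 found for deep cassette exons. SERBP1, an mRNA-binding protein, was at 38.6% of 4140 reads in KO cells, against 33.9% of 4426 in WT cells, a difference of 4.69 points. HNRNPM, a splicing regulator, was at 50.7% in KO cells and 47.7% in WT cells, a difference of 3.02 points (-1.79 to 7.81) that was not called.

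Among metabolic enzymes and carriers, 2 of 19 members were called (10.5%, against 6.81% of all members), and both genes encode enzymes of purine synthesis. IMPDH2 makes the committed step to guanine nucleotides. Its 72 nt exon (chromosome 12, 11622485 to 11622556, 24 codons) was in 103 of 589 reads in KO cells, 17.5% (14.5 to 20.8), against 467 of 789 in WT cells, 59.2% (55.7 to 62.6). It fell by 41.7 points (36.9 to 46.1 points lower), with a Fisher's exact adjusted p of 4.22e-54 and 5.13e-12 with the correction. ADSL, adenylosuccinate lyase, had a 126 nt exon (chromosome 1, 49992388 to 49992513) in 264 of 312 reads in KO cells, 84.6% (80.1 to 88.4), against 197 of 282 in WT cells, 69.9% (64.1 to 75.2). It rose by 14.8 points (Fisher's exact adjusted p = 0.000793, and 0.792 with the correction). The purine enzyme ADSS was at 98.6% in KO cells and 97.3% in WT cells and was not called.

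Enzymes outside the list included GALNT2, which starts O-linked sugar chains in the Golgi. Its 69 nt exon was in 16 of 106 reads in KO cells (15.1%), against 32 of 69 in WT cells (46.4%), 31.3 points lower (Fisher's exact adjusted p = 0.000441, and 0.685 with the correction). MTMR14, a phosphoinositide phosphatase, and ZDHHC16, a palmitoyltransferase, were named after their values were seen. MTMR14 was at 52.3% in KO cells, against 69.0% in WT cells. ZDHHC16 was at 53.4% in KO cells, against 42.6% in WT cells. COX7A2L, an assembly factor of respiratory supercomplexes, was named because it remained with the correction. Its 135 nt exon (chromosome 3, 23247864 to 23247998) was in 590 of 624 reads in KO cells, 94.6% (92.5 to 96.2), against 621 of 758 in WT cells, 81.9% (79.0 to 84.6). It rose by 12.6 points (9.32 to 15.9), with a Fisher's exact adjusted p of 4.12e-11 and 0.0357 with the correction.

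Of 26 members in 23 genes of DNA replication, repair and cell division, 3 were called (11.5%, against 6.81% of all members). INCENP, the scaffold of the chromosomal passenger complex that carries Aurora B, had a 114 nt exon (chromosome 5, 16401957 to 16402070, 38 codons) in 801 of 1062 reads in KO cells, 75.4% (72.7 to 78.0). In WT cells it was in 453 of 776 reads, 58.4% (54.8 to 61.9), so it rose by 17.0 points (12.7 to 21.3, Fisher's exact adjusted p = 2.14e-12, and 0.0124 with the correction). TUBGCP5, a subunit of the gamma-tubulin ring complex that nucleates microtubules, had a 111 nt exon (chromosome 1, 129712351 to 129712461) in 20 of 52 reads in KO cells (38.5%), against 2 of 43 in WT cells (4.65%). PCM1, the core of centriolar satellites, had a 171 nt exon (chromosome 4, 62447489 to 62447659) in 42 of 63 reads in KO cells, 66.7% (53.7 to 78.0), against 102 of 110 in WT cells, 92.7% (86.2 to 96.8). Neither the TUBGCP5 nor the PCM1 call remained with the correction. NCAPG2, a condensin II subunit, and RIF1, a replication timing and break repair protein, lay outside the list and were named after their values were seen. NCAPG2 was at 49.1% in KO cells, against 28.6% in WT cells, and RIF1 at 61.8% in KO cells, against 81.2% in WT cells. The deepest uncalled members of the list were WAPAL, a cohesin release factor, at 71.9% in KO cells and 74.4% in WT cells, and RFC4, a clamp loader subunit, at 97.3% in KO cells and 94.4% in WT cells.

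The remaining lists held few calls. In membrane traffic, 2 of 44 members were called (4.5%, against 6.81% of all members), both lower in KO cells and neither left with the correction. LGALS8, a galectin that binds damaged vesicles, was at 37.5% of 48 reads in KO cells, against 72.7% of 44 in WT cells. SEC16A, which organises exit sites of the endoplasmic reticulum, was at 33.3% of 87 reads in KO cells, against 57.7% of 78 in WT cells. TRAPPC8, a subunit of a tethering complex, was at 75.3% in KO cells and 64.3% in WT cells, a difference that was not called (Fisher's exact adjusted p = 0.112). Of 34 members in kinase and phosphatase genes 1 was called (2.94%), the PTPRC exon, and of 20 members in ubiquitin genes 0 were called. CUL2, a ubiquitin ligase scaffold, was at 33.1% in KO cells and 35.4% in WT cells, and CSNK1A1, casein kinase 1 alpha, at 18.3% in KO cells and 20.3% in WT cells. The genes in none of the 9 lists held 625 members, of which 26 were called (4.16%, against 6.81% of all members), 16 higher and 10 lower.

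Among those 26, SLMAP and COX7A2L were among those that remained with the correction. SLMAP, a membrane-anchored component of the STRIPAK phosphatase complex, had a 57 nt exon (chromosome 12, 8799021 to 8799077) in 120 of 189 reads in KO cells, 63.5% (56.2 to 70.4), against 343 of 386 in WT cells, 88.9% (85.3 to 91.8). It fell by 25.4 points (Fisher's exact adjusted p = 4.78e-10, and 0.0307 with the correction). BAG4, a cochaperone of HSP70, had a 105 nt exon (chromosome 22, 2270319 to 2270423) in 115 of 231 reads in KO cells, 49.8% (43.2 to 56.4), against 33 of 182 in WT cells, 18.1% (12.8 to 24.5). Its rise of 31.7 points had a Fisher's exact adjusted p of 2.34e-09, and 0.0691 with the correction. Other calls outside the lists, named after their values were seen, were LRRFIP2, TMEM156 and NF1, lower in KO cells, and CASC4, FAM122A and LOC100859792, higher in KO cells. LRRFIP2 was at 4.40% in KO cells, against 21.5% in WT cells. NF1, a GTPase-activating protein for RAS, was at 85.2% in KO cells, against 96.5% in WT cells. TMEM156 was at 31.4% in KO cells, against 46.6% in WT cells. CASC4 was at 45.3% in KO cells, against 32.0% in WT cells, and LOC100859792 at 64.0% in KO cells, against 48.9% in WT cells. FAM122A was at 115 of 115 reads in KO cells, against 47 of 54 in WT cells (87.0%).

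There were 118 genes with 2 or more members, 94 of them with 2. In 60 of the 118 no members differed in opposite directions, where a difference of 0 counted as neither. This number was not set against an expected one. A called member was found in 14 of the 118, and BBX had 2, both lower in KO cells. The other members of those 14 genes were 18 uncalled exons, which the call itself selects for small or imprecise differences. Of these 8 differed in the same direction as the called exon and 10 in the opposite one, and 11 differed by under 5 points. SLMAP had other members at 5.55 and 2.71 points above WT beside the exon that fell by 25.4. UBN1 had others at -1.12 and 6.34 points beside the exon that rose by 38.7, and MAP4 had others at -1.40 and 0.19 points. ARNT, ADSL, PHF20 and R3HDM1 each had 1 other member, with differences of -1.08, -1.10, -0.35 and -2.17 points in KO minus WT. Among these 18, differences of 10 points or more were those of EHMT1, with a second exon at 89.4% in KO cells and 76.5% in WT cells, and UNK, with a second exon at 66.2% in KO cells and 51.8% in WT cells. Neither was called. ABI1 had a second member with a difference of -7.91 points (Fisher's exact adjusted p = 0.00816, under the 10-point minimum). Genes without a call could also hold members that all lay on one side, among them ANK2, an ankyrin, with 4 exons between -19.3 and -2.73 points, and AKAP13, a kinase anchor, with 3 exons between 3.25 and 25.1 points. Both were named after their values were seen.

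**Figure D3:**
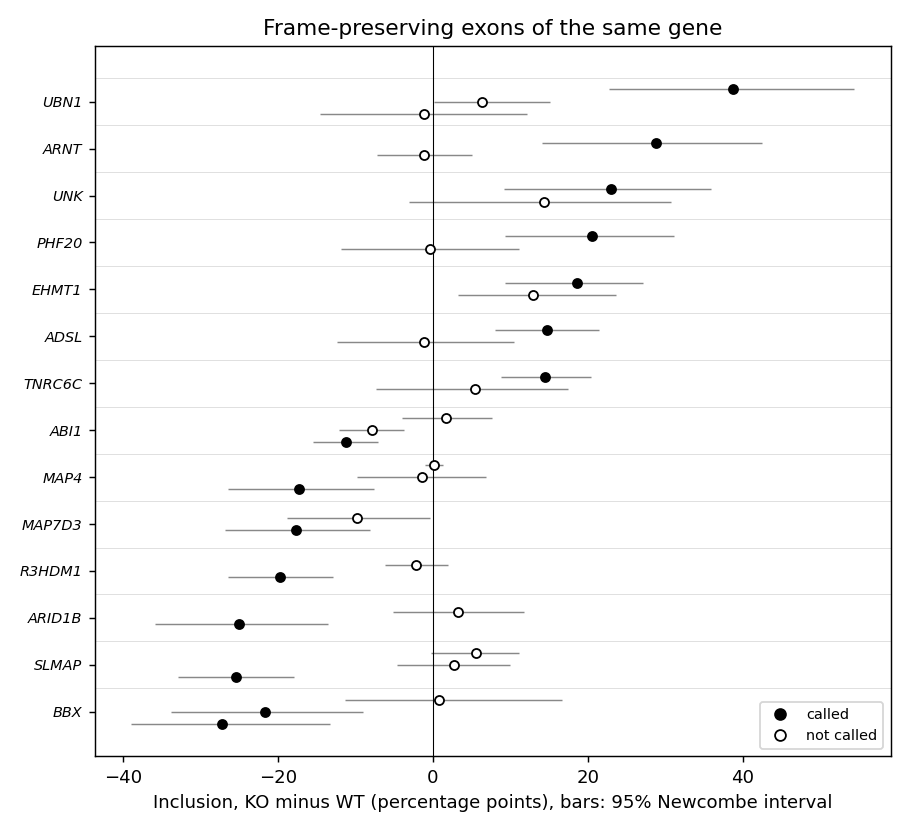
Difference in inclusion (KO minus WT, percentage points, with 95% Newcombe intervals) of every frame-preserving exon in the 14 genes that have a called member and at least 1 other member. Filled points are called, which needs a difference of at least 10 points, and open points are not. The filled BBX points lie at -27.2 and -21.7 points.

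Events outside this length and frame class changed in some of the same genes, some in the direction of the called exon and some in the other. ARHGAP17 had cassette exons of 243 nt, at 25% in KO cells against 53.8% in WT cells, and of 45 nt, at 5.22% in KO cells against 20.4% in WT cells, so that 3 exons of the gene were called lower. PHF20 had overlapping cassette rows of 46 nt and 71 nt, at 73.4% in KO cells against 53.0% in WT cells and at 77.7% in KO cells against 61.5% in WT cells. Called PHF20 rows of undefined type went the other way. They were at 72.4% in KO cells against 90.8% in WT cells, and at 74.6% in KO cells against 89.0% in WT cells. MEF2A had a 132 nt exon of a mutually exclusive row beside its called exon, at 36.4% in KO cells against 23.3% in WT cells. ZYX had an alternative 3′ splice site at 98.4% in KO cells, against 58.6% in WT cells (Fisher's exact adjusted p = 3.36e-19). BPTF, whose called exon rose, had an alternative 3′ splice site at 0% of 28 reads in KO cells, against 61.2% of 67 in WT cells. Events of one gene can share reads, so these are not independent of the called exons.

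Frame-shifting exons of the same lengths, 728 of them in 648 genes, served for comparison. Of the frame-preserving exons 45.2% lay at intermediate levels, between 10% and 90% inclusion, in KO cells (42.0 to 48.5), against 31.7% of the frame-shifting exons (28.3 to 35.3). In WT cells the shares were 46.2% of frame-preserving (42.9 to 49.5) and 34.9% of frame-shifting exons (31.4 to 38.5). Above 90% inclusion lay 48.4% of frame-preserving and 61.1% of frame-shifting exons in KO cells, and 46.3% of frame-preserving and 56.9% of frame-shifting exons in WT cells. Exons of one gene and library share their source, so these intervals cover counting error over exons and the differences between the classes were not tested. Among frame-preserving exons 136 were at 100% in KO cells (14.9%) and 86 in WT cells (9.44%), and 9 were at 0 in KO cells and 14 in WT cells. Frame-shifting exons at 100% were also more numerous in KO cells, 164 (22.5%), than in WT cells, 97 (13.3%). At 0 were 12 frame-shifting exons in KO cells and 9 in WT cells.

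**Figure D4:**
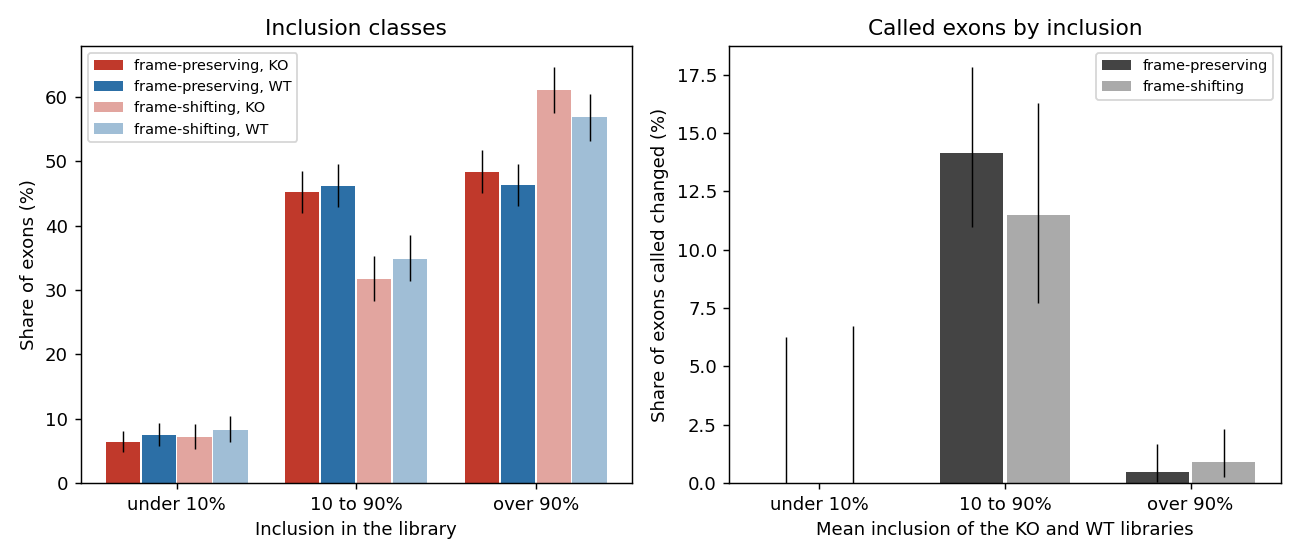
Left, share of exons (%) at under 10%, 10 to 90% and over 90% inclusion in KO cells and in WT cells, and right, share of exons called changed (%) by mean inclusion, both for frame-preserving and frame-shifting exons of 46 to 200 nt with 95% Clopper-Pearson intervals. Intermediate inclusion held 45.2% of the frame-preserving and 31.7% of the frame-shifting exons in KO cells. By mean inclusion most calls were intermediate, 60 of 62 frame-preserving and 27 of 31 frame-shifting ones. The mean and the difference come from the same 2 levels, so exons in the outer classes cannot differ by 20 points or more.

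Calls were 62 of 911 among frame-preserving exons (6.81%, 5.26 to 8.64), against 31 of 728 among frame-shifting exons (4.26%, 2.91 to 5.99). Median reads were 116 in KO cells and 112 in WT cells for frame-preserving exons, against 88 in KO cells and 86 in WT cells for frame-shifting exons. The part of read depth and of inclusion level in these call shares was not tested. Among exons with a mean inclusion between 10% and 90%, 60 of 424 frame-preserving exons were called (14.2%, 10.98 to 17.8), against 27 of 235 frame-shifting exons (11.49%, 7.71 to 16.3). These intervals overlapped. Among called exons, 35 of 62 frame-preserving exons were higher in KO cells (56.5%, 43.3 to 69.0), against 24 of 31 frame-shifting exons (77.4%, 58.9 to 90.4). With the correction 8 frame-preserving exons and 1 frame-shifting exon remained.

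Inclusion differed with length, and the share of calls with depth. In the shortest group, 46 to 75 nt, 20 of 213 exons were called (9.39%, 5.83 to 14.1), 8 higher and 12 lower. Median inclusion in that group was 74.4% in KO cells and 70.7% in WT cells. In the group of 76 to 105 nt, 14 of 269 were called (5.20%, 2.87 to 8.58), 8 higher and 6 lower. In the group of 106 to 135 nt, 14 of 205 were called (6.83%, 3.78 to 11.2), 11 higher and 3 lower. In the longest group, 136 to 200 nt, 14 of 224 were called (6.25%, 3.46 to 10.3). Median inclusion in the longest group was 92.8% in KO cells and 92.6% in WT cells. The interval of every length group held the 6.81% of all members. By reads in the shallower library, the calls were 5 of 222 exons with 20 to 49 reads (2.25%) and 15 of 241 with 50 to 99 (6.22%). They were 16 of 199 with 100 to 199 reads (8.04%) and 26 of 249 with 200 or more (10.4%). Calls were spread over the genome, with 29 of 465 exons on chromosomes 1 to 5 (6.24%), 9 of 152 on chromosomes 6 to 10 (5.92%) and 22 of 275 on chromosomes 11 to 28 (8%).

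**Figure D5:**
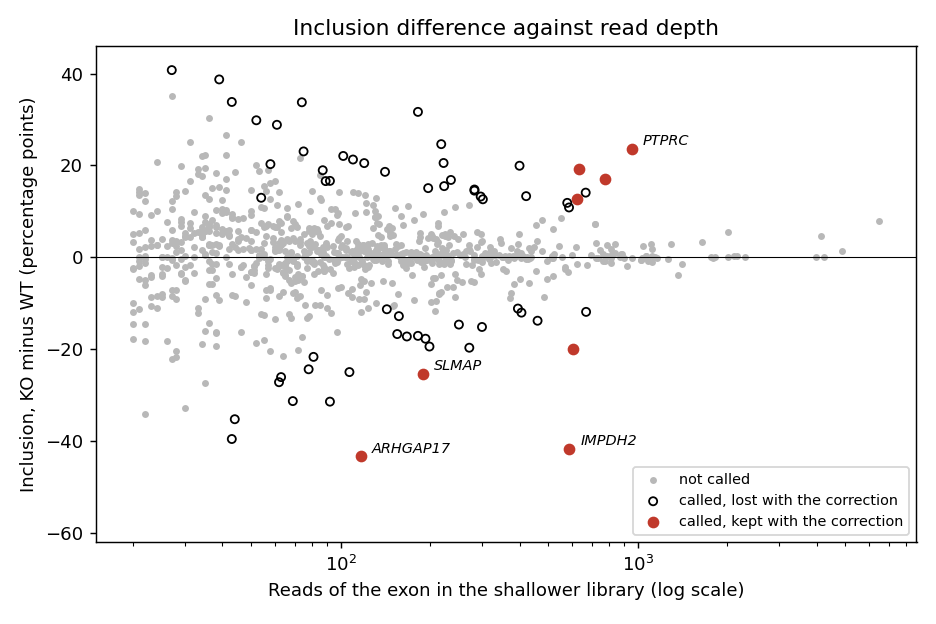
Difference in inclusion (KO minus WT, percentage points) of the 911 exons against the reads of the exon in the shallower library (log scale). The spread narrows with depth, and those of the 8 exons called with the correction that differ by 20 points or more are named.

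Wide differences were not all called, and the part of read depth in this was not tested. A difference of 20 points or more was measured for 47 exons, and 20 of these were not called. By the rule for a call, these 20 met the 10-point minimum and failed the p threshold alone. None of the 20 had more than 128 reads in either library. Examples named after their values were seen are ZNF341, at 75.8% in KO cells and 40.7% in WT cells (Fisher's exact adjusted p = 0.11), and BBS5, at 47.8% in KO cells and 81.8% in WT cells (Fisher's exact adjusted p = 0.265). At the other end, 16 exons passed the p threshold with differences under 10 points. Several of the exons read most deeply were at or near full inclusion in both libraries. HYOU1, a chaperone of the endoplasmic reticulum, was at 99.98% of 6122 reads in KO cells and 100% of 4233 in WT cells, and the ribosomal protein gene RPL31 and the traffic gene SEC31A were as close to 100% in both. CNIH, a cargo receptor, was at 89.3% in KO cells and 89.9% in WT cells, a difference of -0.61 points (-3.24 to 2.01). Its interval, like that of ZNF207 at -1.42 points (-4.21 to 1.35), keeps the 2 libraries within 5 points of each other for counting error alone. The intervals were not widened for the excess in the chi-square statistic.

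In the authors' deposited table, 71 of the 911 members had an adjusted p under 0.05 (7.79%, against 5.43% of all tested cassette exons), 40 of them higher in KO cells and 31 lower. Of these, 45 were also among the 62 called here, which is 72.6% of the 62 and 63.4% of the 71. The lowest values among the exons named above were those of BAG4, 0.000209 in the authors' deposited table, ARNT, 0.000231, SLMAP, 0.000251, and EWSR1, 0.000262. The authors' deposited table gave 0.0258 for PTPRC and 0.0113 for ARHGAP17. FAM122A, called here, had a value of 1 in the authors' deposited table. The test behind those values is not given in the sources used here, so the reasons for the unshared calls were not tested.

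At the limits of the rule, the 23 members of 48 nt had differences between -43.3 and 23.1 points with a median of 0.36, and the 23 exons of 45 nt just outside had differences between -39.5 and 12.5 points with a median of -4.88. At the upper limit, 7 members of 198 nt lay between -7.18 and 2.98 points, and 3 exons of 201 nt between -3.83 and 2.37. At the read minimum, 9 members with 20 reads in the shallower library lay between -17.7 and 10 points, and 5 exons with 19 reads between -8.86 and 10.5.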

How the data were processed

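The deposited table lists, per splicing event and library, read counts as exclusion and inclusion numbers, with an adjusted p-value per event that the authors deposited. Reads were handled with TopHat2 2.0.6 and Cufflinks on galGal4, per the submitters' processing notes. The event caller, the authors' test and the treatment of strand are not stated in these sources. Of 10652 rows, 276 without 2 numbers per library and 63 repeats (same type, position and counts) were left out, which left 10313 events. Whether inclusion counts sum both junctions of an exon is not stated, and an alternative took 0.5 of them.

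Inclusion, intervals, the two-sided Fisher's exact test and Benjamini-Hochberg adjustment over 6089 events with at least 20 reads in each library were computed with Python 3.11.15, SciPy 1.17.1, pandas 2.3.3 and NumPy 2.4.6, and figures with matplotlib 3.10.9. The correction scaled chi-square values down by the median excess found for that type of event, over events with expected counts of 5 or more. Gene names follow the table, and 840 of the 911 members matched a current RefSeq symbol. No genome sequence was used here, so no exon sequence is shown.

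The members and the 9 gene lists were chosen with earlier results of these data known. Lists are described by counts and medians, with no test. Exons were named by rule: the 12 widest calls in each direction with 1 per gene, up to 4 widest calls of each list, all members of genes with 2 or more calls, the 5 deepest members, up to 2 deepest uncalled members of each list, members near the limits, and those with the narrowest difference intervals. Others are marked as named after their values were seen. Each group has 1 library, so p-values measure read sampling between 2 libraries. A few items are not reported here.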

Additional observations from a re-analysis of the deposited data

How the results depend on the processing

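The 62 calls (35 higher in KO cells, 27 lower) became 64 with a minimum of 10 reads, 59 with 50 reads, 78 with no minimum difference, 62 with 1 row per position, 68 with adjustment over cassette exons only and 71 by the authors' deposited adjusted p-values. A minimum difference of 20 points gave 27 (15 higher, 12 lower). An adjusted p under 0.01 gave 42 (23 higher, 19 lower). Dividing all reads by 2 gave 22 (12 higher, 10 lower), and dividing inclusion reads by 2 gave 41 (23 higher, 18 lower), 37 of them among the 62. Taking 1 event per gene gave 31 (19 higher, 12 lower), among 557 members and so fewer exons by construction. Dividing by the median inflation gave 8 (4 higher, 4 lower). Inflation estimated apart for shallow and deep exons, added after the data were seen, gave 4 (1 higher, 3 lower). The 20-point minimum and the adjusted p under 0.01 are stricter limits on the same calls, so they give fewer by construction. For the other losses the cause was not tested. The 59 exons named by rule include uncalled ones, such as those of BLNK and MYH9, which had no call to lose. The counts that follow are therefore not shares of 59. Of the calls among the 59, only 4 were kept with inflation apart for shallow and deep exons, against 30 lost. Calls lost were 30 with inflation apart for shallow and deep exons, 28 with the correction and 21 with all reads divided by 2. They were 12 with inclusion reads divided by 2, 10 at an adjusted p under 0.01 and 6 by the authors' deposited p-values. No paired analysis was possible because each group has 1 library, and for the same reason no library could be left out. Calls were a smaller share of shallow exons: 5 of 222 exons with 20 to 49 reads in the shallower library were called, against 26 of 249 with 200 or more.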
